A study of Mus musculus with 10 samples.

Results

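Hox genes, the 4 clusters of homeobox transcription factors that set position along the body axis, were followed through reprogramming of mouse fibroblasts on 10 single-channel Affymetrix arrays. A member was any gene whose only symbol in the platform annotation was Hox, a cluster letter from a to d and a paralog number, and each was read from its probe set with the highest mean over all arrays. This gave 31 members among 12393 genes with a probe set of a single symbol, of 39 Hox genes in the RefSeq gene table. The members were 9 of 11 Hoxa genes, 9 of 10 Hoxb, 6 of 9 Hoxc and 7 of 9 Hoxd. The remaining Hox genes of that table were not analysed here.

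Hox genes lie in their clusters in the order in which they are used along the body, with low paralog numbers for the head and neck and high ones for the lower trunk and limbs. Polycomb complexes keep the clusters silent in pluripotent cells and in cells from other positions. Fibroblasts keep the Hox pattern of the place they came from, which is known as positional memory.

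The series compared 5 groups of 2 arrays, with replicates lettered a and b. Established induced pluripotent stem cells, or iPSC, were kept in 2i, a pair of kinase inhibitors, with serum ("iPSC in 2i"), or together with mouse embryonic fibroblasts (MEFs, "iPSC with MEFs"). Secondary MEFs, a form of fibroblast in which the Yamanaka factors (Myc, Klf4, Sox2 and Pou5f1) can be switched on, were analysed 32 days after the factors came on, as a whole sample with no fraction named ("day 32 sample") and as a Sox2-positive and a Sox2-negative fraction, in a series described as using RNA FACS, the sorting of cells by an RNA they hold. All groups were in standard mouse embryonic stem cell medium except where noted, and no strain, transgene or age is named for any. The labels do not say which part of the embryo the MEFs came from, and there is no sample of MEFs before reprogramming or of MEFs alone. Nor do they say whether the co-cultured MEFs were removed before RNA was taken. Replicates are not said to be separate cultures, so each p-value reflects just the spread among these arrays.

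The values are the deposited log2 expression values, on which 1 unit is a doubling, and a level of 4 was used as the limit above which a gene was taken as measured. The arrays fell into classes by their 18S ribosomal RNA control at the 3' end, which read 5.25 to 6.55 in iPSC in 2i and the day 32 sample and 11.35 to 13.22 in iPSC with MEFs and both fractions. The median of all probe sets was 5.28 to 5.36 in the first class and 4.26 to 4.33 in the other. Class and group cannot be told apart between the 2 iPSC groups, or between a fraction and the day 32 sample, so tests between groups of the same class are given first. Of 12 pluripotency markers, all 12 were above 4 on both arrays in each group other than the Sox2-negative fraction, where 3 were. Sox2 read 4.45 and 4.13 there. Of 20 fibroblast markers, 6 were above 4 on both arrays in iPSC in 2i, 6 in iPSC with MEFs, 15 in the day 32 sample, 3 in Sox2-positive and 8 in Sox2-negative cells.

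Hoxa9, Hoxa10, Hoxd8 and Hoxd9 read over 1 log2 unit higher on replicate a than b in all 3 day 32 groups. Sequence upstream of the start site is shown for these genes and for Hoxb4, a member called in 3 of the comparisons. Each is the 250 bases before a start from RefSeq on GRCm38.p6, written 5′ to 3′ on the strand of the gene, with CpG dinucleotides, the sites of DNA methylation, in capitals.
Hoxa9, chr6:52227371-52227620, minus strand: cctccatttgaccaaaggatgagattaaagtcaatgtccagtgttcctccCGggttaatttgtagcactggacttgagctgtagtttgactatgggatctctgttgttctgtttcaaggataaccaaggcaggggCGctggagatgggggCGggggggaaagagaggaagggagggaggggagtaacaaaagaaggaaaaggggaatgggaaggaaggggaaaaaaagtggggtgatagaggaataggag
Hoxa10, inner start, chr6:52234940-52235189, minus strand: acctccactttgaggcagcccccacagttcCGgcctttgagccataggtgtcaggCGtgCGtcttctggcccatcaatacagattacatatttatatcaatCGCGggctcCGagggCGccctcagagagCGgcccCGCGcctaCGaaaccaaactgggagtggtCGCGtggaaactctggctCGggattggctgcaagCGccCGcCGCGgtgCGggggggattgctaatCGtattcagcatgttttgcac
Hoxa10, outer start, chr6:52240855-52241104, minus strand: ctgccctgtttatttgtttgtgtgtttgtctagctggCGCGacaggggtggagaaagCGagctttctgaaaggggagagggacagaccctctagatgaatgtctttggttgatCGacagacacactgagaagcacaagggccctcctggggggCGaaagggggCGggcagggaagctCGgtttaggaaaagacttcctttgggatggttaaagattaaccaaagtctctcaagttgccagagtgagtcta
Hoxd8, chr2:74704365-74704614, plus strand: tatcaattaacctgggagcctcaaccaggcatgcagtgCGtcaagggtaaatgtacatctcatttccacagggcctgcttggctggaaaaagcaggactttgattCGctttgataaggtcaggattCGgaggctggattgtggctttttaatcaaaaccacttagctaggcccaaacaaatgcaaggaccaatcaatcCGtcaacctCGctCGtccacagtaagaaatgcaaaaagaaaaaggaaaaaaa
Hoxd9, chr2:74697513-74697762, plus strand: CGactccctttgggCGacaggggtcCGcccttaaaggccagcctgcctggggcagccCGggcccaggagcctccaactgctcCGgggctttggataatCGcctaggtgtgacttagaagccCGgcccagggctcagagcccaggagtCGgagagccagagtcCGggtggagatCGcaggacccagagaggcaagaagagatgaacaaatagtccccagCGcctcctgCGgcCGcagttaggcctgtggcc
Hoxb4, chr11:96318017-96318266, plus strand: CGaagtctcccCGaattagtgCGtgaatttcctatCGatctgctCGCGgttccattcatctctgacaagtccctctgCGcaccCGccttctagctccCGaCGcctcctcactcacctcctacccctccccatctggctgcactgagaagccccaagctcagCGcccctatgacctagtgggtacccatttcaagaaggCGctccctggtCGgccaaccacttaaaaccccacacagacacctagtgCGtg

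These windows held 3 CpG for Hoxa9, 20 and 7 for the inner and outer start of Hoxa10, 6 for Hoxd8, 13 for Hoxd9 and 14 for Hoxb4. A window was at hand for 18 of the 31 members (20 windows, as Hoxa10 and Hoxd11 have 2 starts). Over these the median was 13 CpG (range 2 to 35) with a GC content of 59.2% (44.4% to 80.0%), beside medians of 6 CpG and 52.4% over 32851 windows of the same length. The 4 genes with the replicate gap given above thus ranged from CpG-poor to CpG-rich windows. Each motif was searched on both strands and counted also where it overlapped another. The site shared by Hox and Pbx proteins (TGATTNAT) was found in 2 of 20 windows (10%; Hoxa2 and Hoxd11), against 2.8% of all windows. The Meis site (TGACAG) was in 10% (Hoxa2 and Hoxa3) against 15.9%, the TATA box (TATAAA) in 10% (Hoxa10 and Hoxd13) against 12.4%, and the homeodomain core (TAATTA) in 10% (both windows of Hoxd11) against 4.8%. Of the windows printed above, the inner one of Hoxa10 held a match, the TATA box.

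Hox genes were low in most samples, and the day 32 sample held the most members above 4. The day 32 sample and the fractions are of different array classes, which cannot be told apart from group. There 9 of 31 (29.0%) were above 4 on both arrays, namely Hoxa9, Hoxa10, Hoxb4, Hoxb9, Hoxc4, Hoxc8, Hoxc13, Hoxd8 and Hoxd9. The Sox2-negative fraction had 4 (12.9%), which were Hoxa3, Hoxb4, Hoxc4 and Hoxd8, so each cluster was represented by a single gene. The Sox2-positive fraction had 0, with Hoxa3, Hoxa9, Hoxb4, Hoxb13, Hoxc4 and Hoxd8 above 4 on 1 of its 2 arrays. There were 2 (6.5%) in iPSC in 2i, Hoxc4 and Hoxc13, and 0 in iPSC with MEFs, with a highest member value of 3.01. Of all 12393 genes the share above 4 on both arrays was 64.0% in the day 32 sample, 51.7% in the Sox2-negative and 52.1% in the Sox2-positive fraction, 62.9% in iPSC in 2i and 53.7% in iPSC with MEFs. Members therefore lay under the share of all genes in every group. The median member level was 3.60 in the day 32 sample, 2.92 in the Sox2-negative fraction, 2.33 in the Sox2-positive fraction, 2.92 in iPSC in 2i and 2.10 in iPSC with MEFs.

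**Figure D1:**
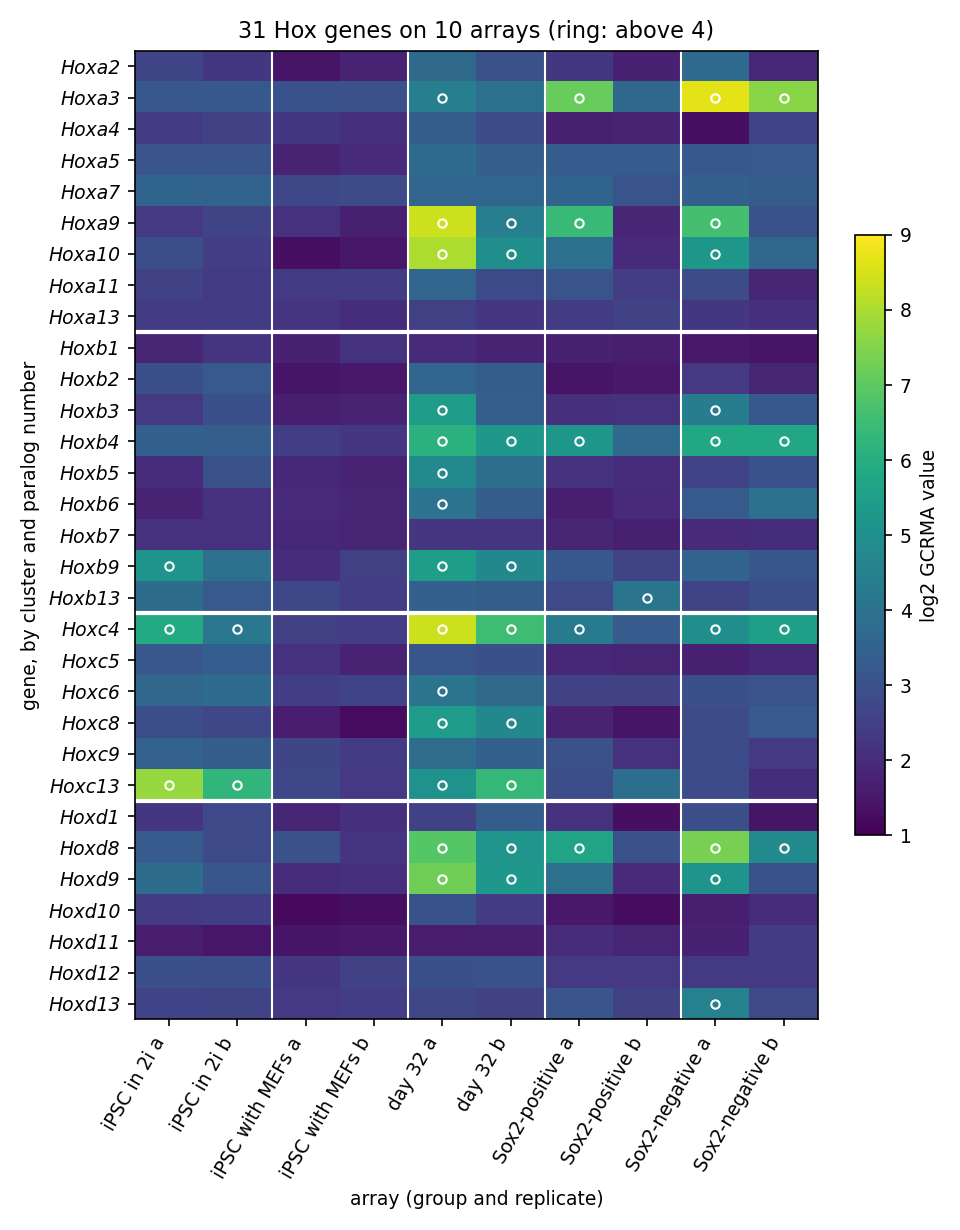
Log2 expression value (colour, from 1 to 9) of 31 Hox genes (rows, by cluster and paralog number) on 10 arrays (columns, by group and replicate), with a ring where the value is above 4. The 2 columns of iPSC with MEFs hold no ring, and replicate a of the day 32 sample holds 14.

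By paralog number, 6 members belonged to groups 1 to 3, 12 to groups 4 to 8 and 13 to groups 9 to 13. In the day 32 sample 0, 4 and 5 of these were above 4 on both arrays. In the Sox2-negative fraction the counts were 1, 3 and 0. These samples are of different array classes. Hoxa3 and Hoxb3 were missing from the day 32 set through replicate b alone (3.94 and 3.43, against 4.43 and 5.42 on replicate a). Hoxa10 and Hoxd9 were missing from the Sox2-negative set through replicate b alone (3.67 and 3.02, against 5.22 and 5.15 on replicate a), as was Hoxa9 (3.01 against 6.64).

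For 15 members no array was above 4, with values from 1.19 to 3.87. They were 6 of the Hoxa genes, 3 of Hoxb, 2 of Hoxc and 4 of Hoxd. Hoxb5, Hoxb6 and Hoxc6 were above 4 on replicate a of the day 32 sample alone (4.83, 4.04 and 4.08), Hoxb13 on replicate b of the Sox2-positive fraction (4.09) and Hoxd13 on replicate a of the Sox2-negative fraction (4.50). Values just inside the limit were those of Hoxb6, Hoxc6 and Hoxb13 just named and 4.21 for Hoxc4 in replicate b of iPSC in 2i. Just outside were Hoxb6 in Sox2-negative replicate b and Hoxd9 in Sox2-positive replicate a (3.96 each), Hoxb9 in iPSC in 2i replicate b (3.95), Hoxa3 in day 32 replicate b (3.94), Hoxa10 in Sox2-positive replicate a (3.93) and Hoxb5 in day 32 replicate b (3.90).

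Hoxa3, which patterns the pharyngeal arches and the organs that grow from them, had the highest member value of the series. It read 8.68 and 7.57 in Sox2-negative replicates a and b and 7.13 and 3.68 in the Sox2-positive ones. The day 32 sample read 4.43 and 3.94, iPSC in 2i 3.16 and 3.20, and iPSC with MEFs 3.01 and 2.99. Both Sox2-negative arrays were above all others, and the Sox2-positive arrays lay far apart. The other Hoxa3 probe set did not show this order: it read 4.42 and 2.53 in the Sox2-negative, 2.26 and 1.68 in the Sox2-positive fraction, and was highest in the day 32 sample (4.73 and 3.85). Which of the probe sets follows the gene was not tested.

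Hoxb4, known for its effect on blood stem cell growth, was the member above 4 on both arrays of the day 32 sample and of the Sox2-negative fraction with the closest replicates. It read 6.10 and 5.27 in the day 32 sample, 5.80 and 5.76 in the Sox2-negative and 5.24 and 3.74 in the Sox2-positive fraction. Its values were 3.47 and 3.42 in iPSC in 2i and 2.48 and 2.26 in iPSC with MEFs. On this probe set all 6 day 32 arrays were above all 4 iPSC arrays. The other Hoxb4 probe set was below 4 on every array, with its highest value, 3.44, on Sox2-negative replicate a. It did not keep this order, as Sox2-positive replicate b read 2.11 against 2.53 and 2.28 in iPSC in 2i. Hoxb3, the neighbour of Hoxb4 in the cluster and a hindbrain patterning gene, read 5.42 and 3.43 in the day 32 sample. It read 4.37 and 3.21 in the Sox2-negative and 2.12 and 2.18 in the Sox2-positive fraction. In iPSC in 2i it read 2.34 and 2.94, and in iPSC with MEFs 1.67 and 1.79.

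Hoxc4 reached 8.40 and 6.52 in the day 32 sample and was also above 4 in iPSC in 2i (5.90 and 4.21). The Sox2-negative fraction read 4.98 and 5.52, the Sox2-positive fraction 4.30 and 3.30, and iPSC with MEFs 2.52 and 2.45. Hoxc8, a gene of the thoracic level, read 5.40 and 4.73 in the day 32 sample and stayed below 4 elsewhere, at 2.93 and 2.70 in iPSC in 2i and 2.86 and 3.24 in the Sox2-negative fraction. It read 1.77 and 1.46 in the Sox2-positive fraction and 1.62 and 1.23 in iPSC with MEFs. These Hoxc genes had both arrays of the day 32 sample above all other arrays. The fractions and iPSC with MEFs are of the other array class, and between them and the day 32 sample class and group cannot be told apart.

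The posterior genes Hoxa9, which drives growth of leukaemic blood cells when overactive, and Hoxa10, a patterning gene of the uterus, had their highest values on replicate a of the day 32 sample. Hoxa9 read 8.39 and 4.42 there, 6.39 and 1.87 in the Sox2-positive and 6.64 and 3.01 in the Sox2-negative fraction, against 2.34 and 2.65 in iPSC in 2i and 2.13 and 1.69 in iPSC with MEFs. Hoxa10 read 8.02 and 4.99 in the day 32 sample, 3.93 and 1.96 in the Sox2-positive and 5.22 and 3.67 in the Sox2-negative fraction. It read 2.92 and 2.46 in iPSC in 2i and 1.32 and 1.51 in iPSC with MEFs. The fractions and iPSC with MEFs are of the other array class than the day 32 sample. For Hoxa9 the replicates of each day 32 group lay further apart than the means of these groups did. The other Hoxa9 probe set was not above 4 in the day 32 sample (3.85 and 3.01). It was highest in the Sox2-negative fraction (5.47 and 3.55) and read 4.97 and 2.75 in the Sox2-positive fraction. Which of the Hoxa9 probe sets follows the gene was not tested.

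Hoxd8 and Hoxd9, which lie beside each other and act in the trunk and limb buds, followed a like order of replicates. Hoxd8 read 6.90 and 5.16 in the day 32 sample, 5.66 and 2.98 in the Sox2-positive and 7.36 and 4.84 in the Sox2-negative fraction. Values below 4 were found in iPSC in 2i (3.30 and 2.78) and in iPSC with MEFs (2.98 and 2.23). Hoxd9 read 7.26 and 5.25 in the day 32 sample, 3.96 and 1.94 in the Sox2-positive and 5.15 and 3.02 in the Sox2-negative fraction. Its values were 3.84 and 3.13 in iPSC in 2i and 2.00 and 2.08 in iPSC with MEFs. On Sox2-positive replicate b both genes were inside or below the range of the iPSC arrays.

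Hoxc13, a gene of hair and nail formation, and Hoxb9, which helps to shape the ribs, departed from this order. Hoxc13 was highest in iPSC in 2i (7.77 and 6.27), followed by the day 32 sample (5.08 and 6.33). It was below 4 in iPSC with MEFs (2.73 and 2.34), in Sox2-positive cells (2.93 and 3.89) and in Sox2-negative ones (2.84 and 2.05). Hoxb9 read 5.14 and 3.95 in iPSC in 2i and 5.49 and 4.74 in the day 32 sample, 2.02 and 2.52 in iPSC with MEFs, 3.19 and 2.65 in the Sox2-positive and 3.56 and 3.13 in the Sox2-negative fraction. The arrays where these genes were high were those of the class with low 18S, and class and group cannot be told apart here.

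**Figure D2:**
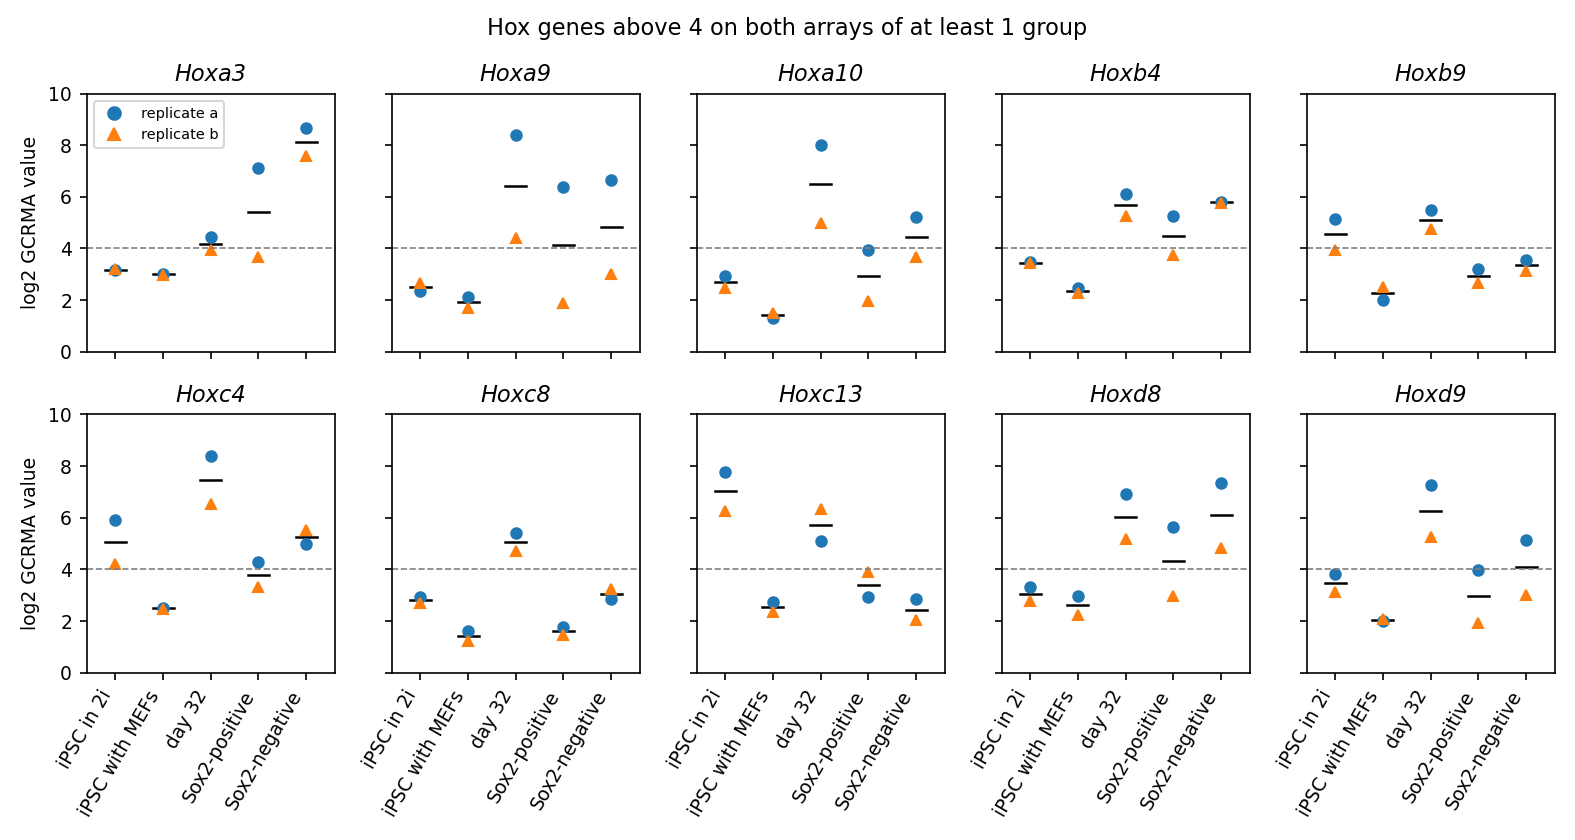
Log2 expression value (vertical axis) in the 5 groups (horizontal axis) of the 10 Hox genes above 4 on both arrays of at least 1 group. Circles are replicate a, triangles replicate b, bars the group mean and the dashed line the limit of 4; Hoxa9 spans 1.87 to 6.39 within the Sox2-positive fraction, while Hoxb4 spans 5.76 to 5.80 in the Sox2-negative one.

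For the tests a gene had to be above 4 on at least 2 arrays, which 8592 genes and 11 members passed (Hoxa3, Hoxa9, Hoxa10, Hoxb3, Hoxb4, Hoxb9, Hoxc4, Hoxc8, Hoxc13, Hoxd8 and Hoxd9). The other 20 members were not tested. Hoxc8 passed through the 2 arrays of the day 32 sample alone, so its difference there is given as a description. Hoxa10 passed through the same arrays and Sox2-negative replicate a. It would not have passed without the day 32 sample, so its difference there is a description too. Calls required a limma adjusted p below 0.05. Where every array of the lower group was at or below 4, a fold is given only as a lower bound, and log2 differences then rest partly on background values. The bound is measured from 4 to the mean of the higher group and takes no account of sampling error. Replicate b was itself below 4 for Hoxa10 in the Sox2-negative fraction (3.67), Hoxb4 in the Sox2-positive (3.74) and Hoxb9 in iPSC in 2i (3.95). The bounds that start from these groups rest on replicate a. For a single gene with 2 arrays a group, the smallest p that an exact permutation test (two-sided) allows is 0.33.

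The Sox2-negative fraction had higher levels of 7 Hox genes than iPSC with MEFs, spread over all 4 clusters, and of 0 lower. Among all genes tested 11.9% were called higher. No member was above 4 in iPSC with MEFs (highest 3.01), so all 11 tested members passed the filter through other groups. Hoxb3 passed only with the help of Sox2-negative replicate a. This left little room for a lower call, here and for the Sox2-positive fraction. The counts describe those 11 and not the clusters. Hoxb4 was higher by 3.41 log2 units (SE 0.46, limma adjusted p = 0.000686), or at least 3.43-fold, and Hoxa3 by 5.12 (SE 0.89, 0.00199), or at least 17.4-fold. With the mean of probe sets the Hoxb4 difference was 2.33 and the Hoxa3 difference 3.32. The other Hoxa3 probe set read 4.42 and 2.53 in the Sox2-negative fraction. Hoxd8 was at least 4.29-fold higher (difference 3.49, SE 1.0, limma adjusted p = 0.0190), Hoxc4 at least 2.38-fold (2.76, SE 0.69, 0.0101) and Hoxa10 at least 1.36-fold (3.03, SE 0.96, 0.0279). Hoxb3 (2.06, SE 0.60, 0.0203) and Hoxc8 (1.62, SE 0.31, 0.00303) were called too, but Hoxb3 had a mean of 3.79 and Hoxc8 was below 4 on all arrays of both groups, so no fold is given. For each of the 7 both Sox2-negative arrays were above both iPSC arrays. The calls of Hoxa10, Hoxb3, Hoxc4 and Hoxd8 were lost when either array of iPSC with MEFs was left out (adjusted p from 0.0532 to 0.115), those of Hoxa10 and Hoxd8 without Sox2-negative replicate a (0.147 and 0.121, the Hoxd8 difference then 2.23), where Hoxb3 no longer passed the filter, that of Hoxc4 without Sox2-negative replicate b (0.0509), and that of Hoxa10 with no filter (0.0521). This left 3 calls without either iPSC array and 4 without Sox2-negative replicate a. Of all genes called here 25.1% were higher, against 41.4% after quantile normalization, where 7 Hox genes were also called.

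Against the same iPSC arrays the Sox2-positive fraction had Hoxb4 higher, by 2.12 log2 units (SE 0.46, limma adjusted p = 0.00878) or at least 1.4-fold, and no other member called. Of all genes tested 6.13% were called higher. The next members were Hoxa3, with a difference of 2.40 (SE 0.89, adjusted p = 0.0610), and Hoxc4, with 1.31 (SE 0.69, 0.164). With the mean of probe sets the Hoxb4 difference was 1.43 and the Hoxa3 difference 1.21. Without Sox2-positive replicate a the difference was 0.68 for Hoxa3, 1.37 for Hoxb4 and 0.81 for Hoxc4. Without Sox2-positive replicate b the Hoxa3 difference was 4.13 (adjusted p = 0.00287) and 2 members were called, and without replicate b of iPSC with MEFs Hoxb4 had an adjusted p of 0.0575 and 0 were. Of all called genes 17.1% were higher, against 39.7% after quantile normalization.

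The direct test of the fractions called 1 member, Hoxc8, lower in the Sox2-positive fraction by 1.43 log2 units (SE 0.31, limma adjusted p = 0.0203), with both fractions below 4. Of all genes tested 5.62% were called lower. Hoxa3, with a difference of -2.72 (SE 0.89, adjusted p = 0.0773), and Hoxb4, with -1.29 (SE 0.46, 0.100), were not called. Both were called without Sox2-positive replicate a, at -4.44 (0.00233) and -2.04 (0.0144), which gave 3 calls, and stood at -0.99 and -0.54 without Sox2-positive replicate b. Hoxc8 was not called without replicate b of the Sox2-positive (0.0976) or the Sox2-negative fraction (0.0739), nor with array weights (0.0749) or the compared arrays alone (0.0920). The fractions share their comparison group above, so the counts of 7 and 1 are not set against each other, and between the fractions 10 of the 11 tested members were not called.

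The day 32 sample had 3 members called higher than iPSC in 2i, from the Hoxa, Hoxb and Hoxc clusters, beside 5.21% of all genes tested. Hoxb4 was higher by 2.24 log2 units (SE 0.46, limma adjusted p = 0.0227) or at least 3.22-fold, and Hoxa10 by 3.81 (SE 0.96, 0.0432) or at least 5.68-fold. Hoxa10 would not have passed the filter without the day 32 arrays. The third was Hoxc8, higher by 2.25, which had passed the filter only through the group where it was high and was not tested without either day 32 array or with a filter of 5. For these genes both day 32 arrays were above both iPSC arrays. With no filter (0.0790) and with the compared arrays alone (0.106) Hoxa10 was not called, nor was Hoxb4 with the mean of probe sets (1.31, 0.0680). Both calls were lost after quantile normalization (0.0832 and 0.0661) and without replicate a (0.128 and 0.0921) or b (0.228 and 0.130) of iPSC in 2i or replicate a of the day 32 sample (0.310 and 0.210, the Hoxa10 difference then 2.30). Without that day 32 array 0 members were called, and without either iPSC array 1 was.

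**Figure D3:**
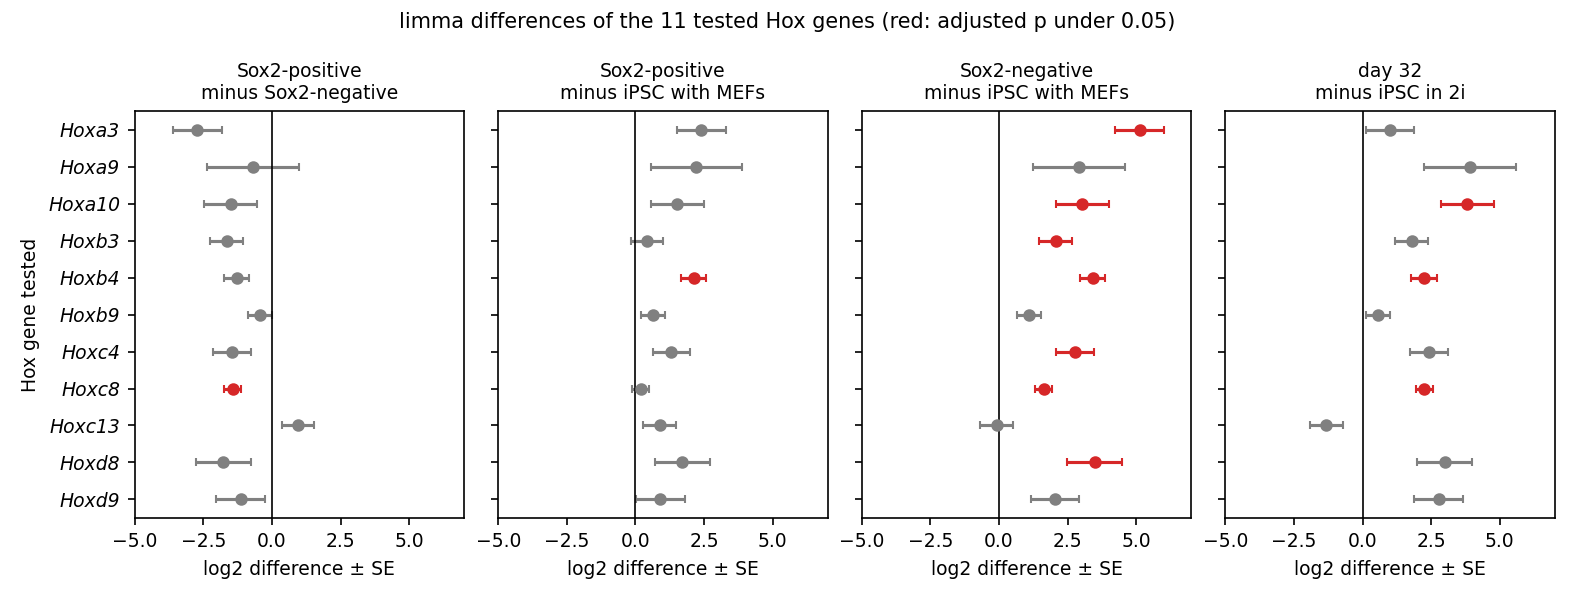
Difference in log2 expression value (horizontal axis, dot, with its standard error as a bar) of the 11 tested Hox genes (vertical axis) in the 4 comparisons inside an array class, red where the limma adjusted p was under 0.05. In Sox2-negative cells against iPSC with MEFs 7 dots are red, from 1.62 for Hoxc8 to 5.12 for Hoxa3.

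The 2 iPSC groups differed in 4 members, which were lower in iPSC with MEFs, in a comparison where 52.9% of all genes tested were called lower and the median of all genes was -1.0. Hoxc13 was at least 8.11-fold lower (difference -4.49, SE 0.59, limma adjusted p = 0.000307), Hoxb9 at least 1.46-fold (-2.27, SE 0.44, 0.00215) and Hoxc4 at least 2.08-fold (-2.57, SE 0.69, 0.0102). Hoxc8 was called with both groups below 4 (-1.39, SE 0.31, 0.00430). Here array class and group cannot be told apart. With each array centred on its median, Hoxc4 (0.0921) and Hoxc8 (-0.37, 0.352) were no longer called, and the differences of Hoxb9 and Hoxc4 were -1.26 and -1.55, so the lower bounds given hold for the deposited scale alone. Hoxc4 was not called after quantile normalization (0.0681), without replicate a of iPSC in 2i (0.0837) or without replicate b of iPSC with MEFs (0.0531). Of all called genes 13.4% were higher, against 55.3% after that centring and 41.6% after quantile normalization. Of 16 tested fibroblast markers 2 were called higher and 5 lower in iPSC with MEFs than in iPSC in 2i. Of all genes 8.16% were called higher there and 52.9% lower. In bulk RNA fewer cells of a type and less RNA per cell cannot be told apart.

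In the day 32 groups, 4 of 31 members (12.9%) were higher on replicate a than on replicate b by over 1 log2 unit in each of the 3 groups, and 0 were lower by as much. They were Hoxa9, Hoxa10, Hoxd8 and Hoxd9, whose upstream sequences stand above. Of all 12393 genes 0.331% (41) did so, and 0.194% (24) were lower by as much. In the Sox2-positive fraction Hoxa10 (3.93 and 1.96) and Hoxd9 (3.96 and 1.94) were below 4 on both arrays. Their gaps there lie among values under the limit. The pattern was noticed in these data and has no test. The other Hoxa9 probe set did not meet it, as its replicates in the day 32 sample (3.85 and 3.01) lay under 1 unit apart. The labels do not say that a letter marks a shared culture. A list of other positional factors of mesenchyme had 41 genes on the array, of which Tbx2 and Prrx1 showed it too. Both are limb and face patterning genes. Tbx2 was below 4 on both Sox2-negative arrays (3.67 and 2.43). Prrx1 read 5.95 and 4.04 in the day 32 sample, 5.30 and 1.96 in the Sox2-positive and 8.42 and 4.46 in the Sox2-negative fraction. Of the pluripotency markers Dppa2 went the other way, and the median of the 12 markers on replicates a and b was 9.54 and 10.92 in the day 32 sample, 9.13 and 9.82 in the Sox2-positive and 4.29 and 3.78 in the Sox2-negative fraction. Of the 20 fibroblast markers 0 showed either direction. The part of these other differences between replicates in the Hox values was not tested.

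**Figure D4:**
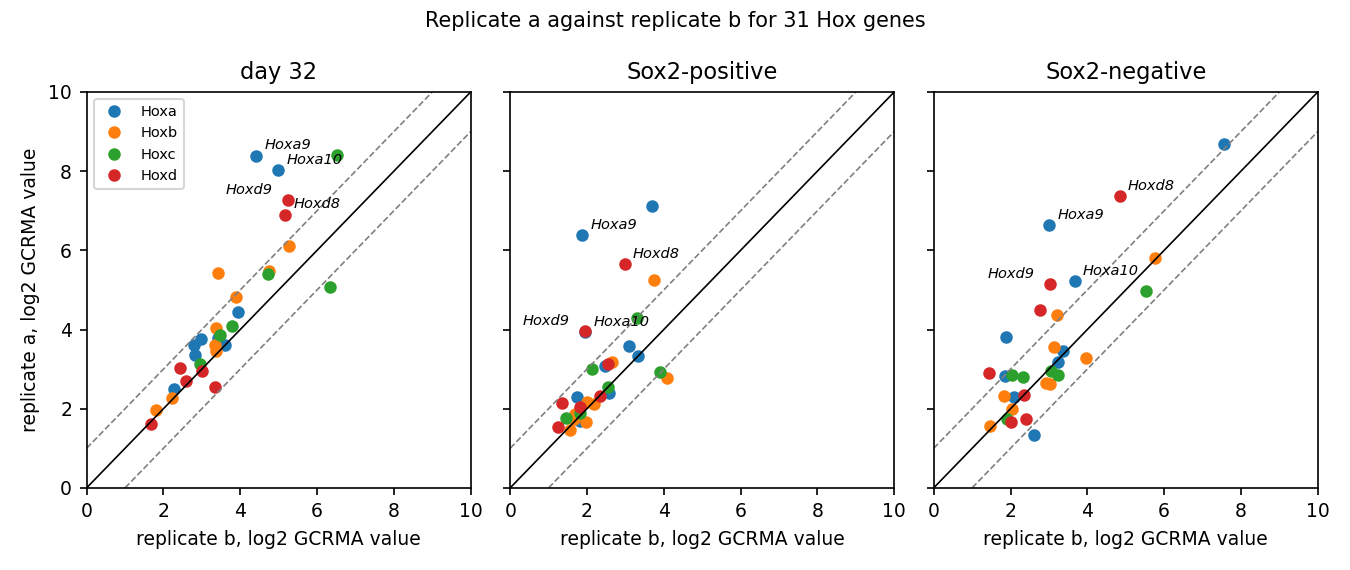
Log2 expression value of 31 Hox genes on replicate a (vertical axis) against replicate b (horizontal axis) in the 3 day 32 groups, coloured by cluster. The solid line marks equal values and the dashed lines a difference of 1; Hoxa9, Hoxa10, Hoxd8 and Hoxd9 lie above the upper dashed line in all 3 panels.

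Genes that work with the Hox genes moved in part. Meis2, a homeodomain partner of Hox proteins on DNA, averaged 7.21 in the Sox2-negative fraction, 3.03 in the Sox2-positive fraction and 2.46 in iPSC with MEFs. It was higher in Sox2-negative cells than in iPSC with MEFs by 4.75 (SE 0.78, limma adjusted p = 0.00158) and lower in the Sox2-positive than the Sox2-negative fraction by 4.18 (SE 0.78, 0.0117), the last call lost without Sox2-positive replicate b (0.0584) and with the compared arrays alone (0.0899). Of 7 tested Pbx, Meis and Pknox cofactors, 3 rose and 1 fell in Sox2-negative cells against iPSC with MEFs (median 1.08, beside -0.50 for all genes). Of all genes 11.9% were called higher there and 35.6% lower. In the Sox2-positive against the Sox2-negative fraction 0 rose and 2 fell (median -1.02, beside -0.02), where 6.87% of all genes were called higher and 5.62% lower. In Sox2-positive cells against iPSC with MEFs 0 rose and 1, Pbx2, fell, beside 6.13% and 29.8% of all genes. In the day 32 sample against iPSC in 2i 1 was called higher, Meis1, at 5.10 and 4.20 against 2.82 and 2.68, beside 5.21% of all genes. Meis1 passed the filter through the day 32 arrays alone, and its call (limma adjusted p = 0.0480) was lost after quantile normalization (0.0961), with median centring (0.0537), no filter (0.0738) or the compared arrays alone (0.0691), and without either iPSC array (0.147 and 0.234).

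Of other factors that mark position in mesenchyme 41 were on the array and 16 were tested. A gene could pass the filter through the group where it was high, so the counts describe those 16 and not the list. In Sox2-negative cells against iPSC with MEFs 11 rose and 1 fell, where 11.9% of all genes were called higher and 35.6% lower. Foxc1, a factor of head and trunk mesenchyme, was higher there by 6.65 (SE 0.68, limma adjusted p = 0.000259), Zic1, a neural and dorsal mesoderm gene, by 6.36 (SE 0.73, 0.000367), and Pax3, of neural crest and muscle precursors, by 8.23 (SE 0.99, 0.000442). Tbx3, a limb gene that is also used in pluripotent cells, was lower by 5.43 (SE 0.39, 9.89e-05). In the day 32 sample against iPSC in 2i 8 of the 16 rose and 0 fell, beside 5.21% of all genes higher and 2.5% lower, with Zic1 higher by 8.0 (SE 0.73, 0.00118). Between the fractions 1 was higher and 6 were lower in Sox2-positive cells, beside 6.87% and 5.62% of all genes, with Tbx3 at 9.14 against 3.94 and Foxc1 at 5.11 against 9.05, the Foxc1 call lost with the compared arrays alone (0.0806). Against iPSC with MEFs 5 of the 16 rose in Sox2-positive cells and 0 fell, beside 6.13% of all genes higher and 29.8% lower.

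The genes that lead to Hox expression or hold it in check showed no common direction across the comparisons. In Sox2-negative cells against iPSC with MEFs each of their lists had more lower than higher calls, as did all genes. Of 8 ParaHox and Evx genes 2 were tested. Cdx1, a ParaHox gene that activates Hox genes in the embryo, read 6.28 and 5.18 in iPSC in 2i, through which alone it passed the filter, and at most 3.43 elsewhere. Aldh1a1, an enzyme that makes retinoic acid, which induces Hox genes, rose by 4.33 (SE 0.56, limma adjusted p = 0.00338) in the day 32 sample against iPSC in 2i, where 2 of 12 retinoic acid genes rose and 0 fell. The retinoic acid genes counted 2 higher and 1 lower between the fractions, 2 and 3 in Sox2-negative cells and 0 and 0 in Sox2-positive cells against iPSC with MEFs. Of all genes 35.6% were called lower in Sox2-negative and 29.8% in Sox2-positive cells against iPSC with MEFs, beside which the lower calls of the following lists stand. Called higher were 11.9% and 6.13% of all genes there, 6.87% between the fractions and 5.21% in the day 32 sample. For 21 Polycomb subunits the counts were 4 higher and 1 lower between the fractions (median 0.25), 2 and 12 in Sox2-negative cells (median -0.94, beside -0.50 for all genes) and 3 and 6 in Sox2-positive cells against iPSC with MEFs, and 2 and 0 in the day 32 sample. Cbx7, the main Cbx protein of Polycomb in stem cells, was higher in the Sox2-positive fraction by 2.82 (SE 0.30, adjusted p = 0.00101). Bmi1, another subunit, went against it, at 5.40 in Sox2-positive and 7.22 in Sox2-negative cells (-1.82, SE 0.33, 0.0103), a call lost without Sox2-positive replicate b (0.0620) and with the compared arrays alone (0.0615). Of 8 Trithorax genes and H3K27 demethylases, which oppose Polycomb, 1 was higher and 0 lower between the fractions, 0 and 4 in Sox2-negative and 0 and 2 in Sox2-positive cells against iPSC with MEFs, and 0 and 0 in the day 32 sample.

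Genes that flank the clusters were tested in the same way. Of 18 in Sox2-negative cells against iPSC with MEFs, 0 were called higher and 8 lower, beside 35.6% of all genes called lower. In the Sox2-positive fraction against iPSC with MEFs 1 was higher and 5 lower, beside 6.13% and 29.8% of all genes. Between the fractions 2 were higher and 0 lower, beside 6.87% and 5.62%. At day 32 against iPSC in 2i 1 was higher and 1 lower, beside 5.21% and 2.5%.

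Markers of cell types also differed between the groups. Of 16 tested fibroblast markers 5 rose and 3 fell in Sox2-negative cells against iPSC with MEFs (median 0.63), beside 11.9% and 35.6% of all genes. In the day 32 sample against iPSC in 2i 6 rose and 0 fell (median 1.69), beside 5.21% and 2.5%. In the Sox2-positive against the Sox2-negative fraction 0 rose and 4 fell (median -1.50), beside 6.87% and 5.62%. Against iPSC with MEFs 0 rose and 3 fell in Sox2-positive cells (median -0.60), beside 6.13% and 29.8%. All 12 pluripotency markers were higher in the Sox2-positive than the Sox2-negative fraction. In the order iPSC in 2i, iPSC with MEFs, day 32 sample, Sox2-positive and Sox2-negative fraction, the markers above 4 on both arrays were 6, 6, 5, 6 and 3 of 6 epithelial ones, 0, 0, 2, 0 and 0 of 6 of primitive endoderm, and 2, 1, 1, 2 and 1 of 6 endothelial ones. They were 1, 0, 4, 1 and 2 of 4 adipocyte markers, 2, 2, 3, 1 and 2 of 6 neural ones and 0 of 6 blood markers in every group. Their part in the Hox values was not tested.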

How the data were processed

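RNA was extracted with Trizol and amplified with NuGEN Ovation reagents, per the labels' protocols, which name 2 kits without saying which sample had which. The deposited log2 expression values had been made by the authors with GCRMA and the affy package, per the submitters' processing notes, and for neither is a version given in the sources used here. They lay between 0.58 and 14.51 and were used unchanged. The scanner files were not used here. Of 22690 probe sets 20380 had a single symbol, and 691 with several and 1555 with none were left out. Each gene was read from its probe set with the highest mean. For 5 members there was more than 1 probe set. The level of 4 was set on these values and no detection calls were used.

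Limma 3.58.1 in R 4.3.3 was fitted to all 10 arrays with a mean per group and tested on simulated data. P-values were adjusted by Benjamini-Hochberg over 8592 genes above 4 on at least 2 arrays. The number of arrays limits the precision. Each member called in a comparison is named with its difference, or the 3 with the smallest p where none is called. The uncalled members named in comparisons of the Sox2-positive fraction fall outside this rule and were added after their values were seen. Up to 4 called genes of a list are named in order of p. The members, gene lists, comparisons and tests were chosen with earlier results of these data known. Alternatives were quantile normalization, median centring, other filters and thresholds, the mean of probe sets, array weights, an intensity trend, a replicate block, the compared arrays alone, and leaving out each array. Sequences came from a RefSeq table. Python 3.11.15 with pandas 2.3.3 and matplotlib 3.10.9 did the rest.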

Additional observations from a re-analysis of the deposited data

Results flagged for a closer look

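These values come from probe sets that no comparison above used, and each was singled out because it was above every iPSC array of that probe set. The other probe set of Hoxa9 reached 5.47 on replicate a of the Sox2-negative fraction, where the probe set used read 6.64. The other probe set of Hoxa3 reached 4.73 on replicate a of the day 32 sample, where the probe set used read 4.43. A probe set that the annotation gives to both Hoxb8 and Hoxb7 reached 4.59 on replicate b of the Sox2-negative fraction, and signals of these neighbouring genes cannot be told apart there. Hoxb7 read from its own probe set was above 4 on no array.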

How the results depend on the processing

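Of 20 differences of Hox genes given above, under 252 alternatives, 212 kept direction and side of the threshold, 33 were no longer called, 7 became called and 0 turned sign. Of 16 called, 4 were tested and called under every alternative, and 2, both of Hoxc8, were called wherever tested but did not pass the filter under at least 1. The cause of each change was not tested beyond what an alternative does by itself. Members above 4 on both arrays numbered 12 in iPSC in 2i, 19 in the day 32 sample, 5 in Sox2-positive and 12 in Sox2-negative cells with a limit of 3, and 1 in iPSC in 2i, 5 in the day 32 sample and 2 in the Sox2-negative fraction with a limit of 5. By the group mean they were 4 in Sox2-positive and 7 in Sox2-negative cells. Quantile normalization gave 1 in iPSC in 2i and 1 in the Sox2-positive fraction, median centring 1 and 2. Leaving out an array gave 9 to 14 in the day 32 sample, 1 to 5 in Sox2-positive and 4 to 9 in Sox2-negative cells.

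The count of Hox genes called between the fractions (1) became 2 with no filter, 0 with a filter of 5, 0 with array weights, 0 with the compared arrays alone and 0 to 3 on leaving out an array. For Sox2-positive cells against iPSC with MEFs (1) it was 2 with no filter, 2 with array weights, 2 with the compared arrays alone and 0 to 2 on leaving out an array, and for Sox2-negative cells (7) it was 3 to 7 on leaving out an array. For the day 32 sample against iPSC in 2i (3) it was 1 after quantile normalization, 6 with array weights and 0 to 4 on leaving out an array. Between the iPSC groups (4) it was 2 with median centring, 12 with no filter, 8 with the compared arrays alone and 3 to 4 on leaving out an array.

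With the replicate letter as a replicate block, 2 Hox genes were called between the fractions, 3 for Sox2-positive cells against iPSC with MEFs, 9 for Sox2-negative cells, 6 for day 32 against iPSC in 2i, and 6 between the iPSC groups. The labels do not say that a letter marks a shared culture. Differences of replicate a minus b correlated over genes at 0.33 between the day 32 sample and the Sox2-positive fraction, 0.21 between the day 32 sample and the Sox2-negative fraction and 0.05 between the fractions. Correlations that involved an iPSC group lay from -0.06 to 0.04. Whether the letters pair the arrays was not tested, and the main fit had no block because the labels give no such pairing.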
